A study of Mus musculus with 16 samples.

Results

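Transcripts of keratinocytes and other epithelial cells were followed through 16 RNA libraries of cells sorted from tumours that the mouse melanoma line YUMM1.7 formed in mice. The genes were Krt14, Krt5, Krt6a, Trp63, Dsp, Cldn3 and Fcgbp, and their 7 rows were found by symbol among the 32697 genes of the count table. They were picked with earlier results of these libraries in view. They were selected on their difference between Irf1-deleted and Irf1 control libraries, where DESeq2 called 5 of them, all but Krt5 and Krt6a, so values of that comparison are given here as a description, with no test. The series describes sorted type 1 conventional dendritic cells (cDC1s), which are not epithelial. There were 4 groups of 4 libraries. They were Irf1-deleted (genotype label IRF1deltaXCR1), Irf1 control (IRF1FF), Ikbkb-deleted (IKKbdeltaXCR1) and Ikbkb control (IKKbFF). The labels name the deletions after XCR1, a chemokine receptor of cDC1s, and do not spell out the Cre line. FF stands for floxed alleles, which the controls carry too. The growth notes speak of female Ikbkb mice only, and of tumours of 200 to 350 mm3. Nothing in the labels ties each replicate to a mouse of its own, so the p-values speak of library-to-library spread, which may be technical.

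Keratins are the intermediate filament proteins of epithelial cells and assemble as pairs of a type I and a type II chain. KRT14 and KRT5 form the pair of basal keratinocytes, the dividing layer of the epidermis, while KRT6A is a type II keratin of hair follicles and of wounded skin. TRP63 (p63) is the transcription factor that maintains the basal layer, and desmoplakin, the product of Dsp, ties keratin filaments to desmosomes. Claudin-3, the product of Cldn3, belongs to the tight junctions of simple epithelia, and FCGBP is a mucus-associated protein of secretory epithelia. These genes are known mainly from epithelia and not from dendritic cells.

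Libraries held 16478671 to 27433818 counts. All 11 genes of a cDC1 list had at least 10 counts in every library, and their sum ran from 764 to 8462 CPM (counts relative to the TMM-scaled library total). A list of fibroblast genes summed to 4058 to 25410 CPM in the same libraries, so genes outside the sorted cell type were present in all of them. The library labelled Irf1-deleted 1 held 299 CPM of Irf1, above every Irf1 control (141 to 268 CPM), so it is named by its label throughout. Irf1-deleted 3 held 145 CPM of Irf1, within that range. Ikbkb-deleted 1 held 46.3 CPM of Ikbkb, within the range of the Ikbkb controls (44.5 to 121 CPM). These names are labels too. Irf1-deleted 2 and 4 (123 and 98.6 CPM of Irf1) and Ikbkb-deleted 2 to 4 (28.5 to 37.8 CPM of Ikbkb) were below their controls. In bulk libraries, fewer cells of a type and less RNA per cell cannot be told apart.

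The 7 genes did not move as a single block. Krt14, Krt5, Krt6a and Dsp were abundant in Irf1-deleted 3, lower in the library labelled Irf1-deleted 1 and near 0 in nearly all others. Cldn3 and Fcgbp were instead highest in Ikbkb-deleted 1. Trp63 was low in every library and was highest in Ikbkb control 3, where Krt14, Krt5 and Krt6a were near 0.

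**Figure D1:**
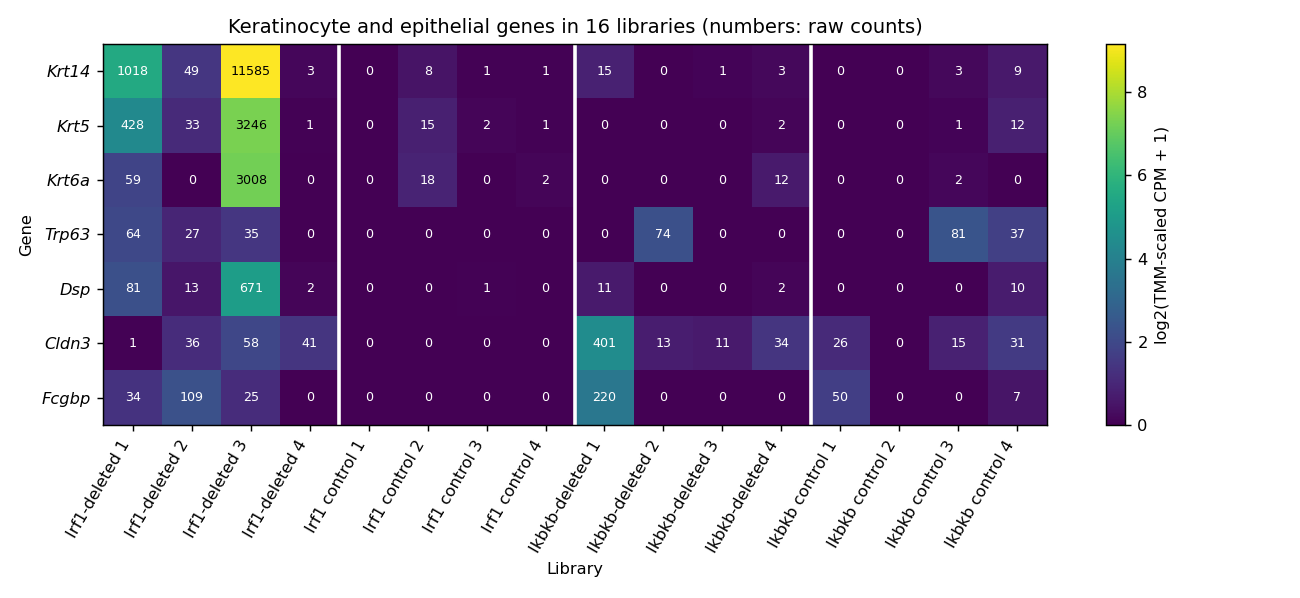
Level of the 7 genes (rows) in the 16 libraries (columns, in 4 groups separated by white lines), coloured by log2(TMM-scaled CPM + 1), with the raw read count written in each cell. Irf1-deleted 3 holds 11585 counts of Krt14, whereas the 4 Irf1 control libraries hold 0, 8, 1 and 1.

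Krt14 (ENSMUSG00000045545, chromosome 11, 100203162 to 100207548, minus strand, mm10) encodes the basal type I keratin. It measured 46.6, 1.71, 572 and 0.121 CPM in the libraries labelled Irf1-deleted 1 to 4, against 0, 0.397, 0.0402 and 0.0472 CPM in the Irf1 controls. Within the Ikbkb set it measured 0.788, 0, 0.0531 and 0.149 CPM in the deleted libraries and 0, 0, 0.158 and 0.560 CPM in the controls. Thus 1 library stood above all the rest, a second stood well above, and Irf1-deleted 4 overlapped with the controls.

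Krt5 (ENSMUSG00000061527, chromosome 15, 101707070 to 101712898, minus strand), the type II partner of Krt14, had the same order. It measured 19.6, 1.15, 160 and 0.0404 CPM in the Irf1-deleted libraries and 0, 0.745, 0.0804 and 0.0472 CPM in the Irf1 controls. Within the Ikbkb set only 3 libraries had a read, at 0.0997 CPM in Ikbkb-deleted 4 and at 0.0526 and 0.747 CPM in Ikbkb controls 3 and 4.

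Krt6a (ENSMUSG00000058354, chromosome 15, 101689910 to 101694307, minus strand), the type II keratin of wounded skin, was nearly confined to a single library. It measured 2.70, 0, 149 and 0 CPM in the Irf1-deleted libraries, against 0, 0.894, 0 and 0.0945 CPM in the Irf1 controls. The others with a read were Ikbkb-deleted 4 at 0.598 CPM and Ikbkb control 3 at 0.105 CPM.

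Dsp (ENSMUSG00000054889, chromosome 13, 38151294 to 38198577, plus strand), which encodes the desmosomal plaque protein, followed the keratins at a lower level. It measured 3.71, 0.454, 33.1 and 0.0808 CPM in the Irf1-deleted libraries, against 0, 0, 0.0402 and 0 CPM in the Irf1 controls. Ikbkb-deleted 1 and 4 held 0.578 and 0.0997 CPM and Ikbkb control 4 held 0.623 CPM, with the other 5 libraries of that set at 0.

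For these 4 genes most of the level over all 16 libraries sat in Irf1-deleted 3. It held 91.9% of the summed CPM of Krt14, 87.7% of Krt5, 97.1% of Krt6a and 85.6% of Dsp. The library labelled Irf1-deleted 1 held a further 7.49%, 10.7%, 1.77% and 9.58%. Across the 16040 genes tested, the median gene had 12.0% of its summed CPM in its highest library. The filter on low counts left out genes such as Krt16, Krt17 and Krt6b that are nearly confined to 1 library, and Krt14, Krt5, Krt6a and Dsp were picked for high values in the Irf1-deleted group, so nothing is read from that contrast.

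**Figure D2:**
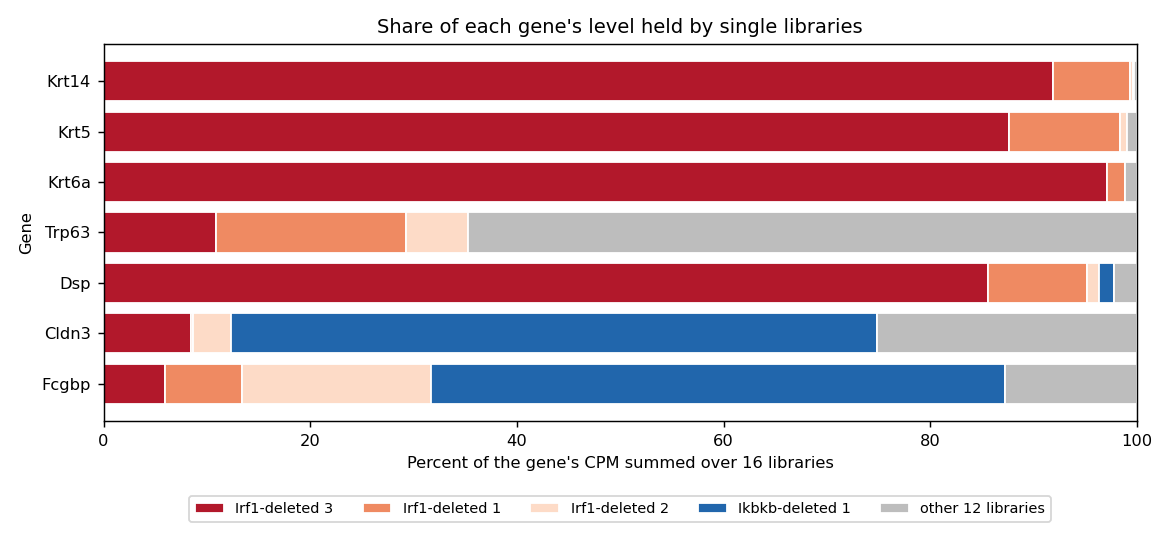
Percent of each gene's CPM, summed over the 16 libraries, that is held by each of 4 named libraries and by the other 12 together. Irf1-deleted 3 fills 85.6% to 97.1% of the bars of Krt14, Krt5, Krt6a and Dsp, and Ikbkb-deleted 1 fills 62.5% of the bar of Cldn3 and 55.5% of that of Fcgbp.

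Per kilobase of exon (annotated transcripts merged), a rough scale between genes, Krt14 had the highest level in Irf1-deleted 3, at 325 CPM per kb. Krt5 and Krt6a followed at 73.0 and 61.4 CPM per kb, then Dsp at 3.43, Cldn3 at 2.27, Trp63 at 0.206 and Fcgbp at 0.118 CPM per kb. In the library labelled Irf1-deleted 1 the first members were again Krt14 (26.5 CPM per kb) and Krt5 (8.92), followed by Krt6a (1.117), Dsp (0.384) and Trp63 (0.349 CPM per kb).

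The mix of keratins differed between the libraries that held them. Krt5 made up 21.9% of the Krt14 and Krt5 counts in Irf1-deleted 3 (exact 95% interval 21.2 to 22.6%), 29.6% in the library labelled Irf1-deleted 1 (27.3 to 32.03%) and 40.2% in Irf1-deleted 2 (29.6 to 51.7%). Krt6a made up 20.6% of the Krt14 and Krt6a counts in Irf1-deleted 3 (19.96 to 21.3%) and 5.48% in the library labelled Irf1-deleted 1 (4.196 to 7.01%). In Irf1-deleted 2 it was 0 of 49 counts, with an upper bound of 7.25%. These intervals cover counting error only, since PCR copies of a molecule could not be told from separate molecules, and each value comes from a single library.

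Reads of the keratins can also be shared with close relatives, which bears on Krt6a most. Of the 50-base windows of its longest annotated transcript, 45.5% occur in transcripts of other genes, mainly of Krt6b (39.9%). The share was 14.4% for Krt14 (mainly Krt16) and 8.52% for Krt5 (mainly Krt6a), and it was 0 for Trp63, Dsp and Cldn3. For Fcgbp it was 8.55%, all with 9530053A07Rik. How the authors counted reads that match several genes is not given in the sources used here, so the split between Krt6a and Krt6b is uncertain.

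Sequences upstream of the start site are shown for Krt5 and Dsp, which followed Krt14, and for Cldn3, which did not. They are the 250 bases before the RefSeq start (GRCm38.p6), at chr15:101712906-101713155 on the minus strand, chr13:38151044-38151293 on the plus strand and chr5:134985964-134986213 on the plus strand. Capitals mark matches to the half-site bound by the p53 family, to which p63 belongs, and to the AP-2 motif GCCNNNGGC, searched on both strands.
Krt5: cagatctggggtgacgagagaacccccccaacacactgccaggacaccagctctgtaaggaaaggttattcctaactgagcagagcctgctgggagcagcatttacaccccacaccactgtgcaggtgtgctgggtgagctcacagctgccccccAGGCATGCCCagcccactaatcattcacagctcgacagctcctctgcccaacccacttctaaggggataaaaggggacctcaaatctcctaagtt
Dsp: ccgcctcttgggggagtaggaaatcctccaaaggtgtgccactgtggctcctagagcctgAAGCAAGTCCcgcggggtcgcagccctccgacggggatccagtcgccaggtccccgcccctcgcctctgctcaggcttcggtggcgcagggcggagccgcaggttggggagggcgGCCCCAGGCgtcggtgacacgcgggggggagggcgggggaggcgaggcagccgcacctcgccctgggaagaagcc
Cldn3: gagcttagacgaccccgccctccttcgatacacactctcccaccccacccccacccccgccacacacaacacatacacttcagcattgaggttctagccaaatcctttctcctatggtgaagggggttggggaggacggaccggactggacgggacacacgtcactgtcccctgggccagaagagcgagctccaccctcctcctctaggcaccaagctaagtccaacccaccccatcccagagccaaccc
The p53-family half-site began 95 bases before the start of Krt5 and 190 bases before that of Dsp, and the AP-2 match began 75 bases before that of Dsp. The Cldn3 and Fcgbp windows held neither motif, and none of these 4 windows held TATAAA. Over 32851 windows of the same length, 7.13% held the half-site, 13.7% the AP-2 motif and 12.4% TATAAA. These matches are a description of the letters only. The window listed for Krt14 lies inside the annotated gene and was left out of these counts, and Krt6a and Trp63 were not in the table.

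Trp63 (ENSMUSG00000022510, chromosome 16, 25683763 to 25892102, plus strand), the basal-layer transcription factor, did not follow the keratins. It measured 2.93, 0.944, 1.73 and 0 CPM in the Irf1-deleted libraries and 0 in all 4 Irf1 controls, where 3 counts over the group would be 0.0335 CPM. Its highest values were 4.26 CPM in Ikbkb control 3 and 3.73 CPM in Ikbkb-deleted 2. Krt14 had 3 and 0 counts in those 2 libraries, and Krt5 had 1 and 0. Ikbkb control 4 held 2.30 CPM and the other 5 libraries of the Ikbkb set held none. Irf1-deleted 3, with 12.3 times the Krt14 level of the library labelled Irf1-deleted 1, thus had the lower Trp63 level of that pair.

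Cldn3 (ENSMUSG00000070473, chromosome 5, 134986214 to 134987472, plus strand), the tight-junction claudin, was detected more widely. It measured 21.1, 0.655, 0.584 and 1.69 CPM in the Ikbkb-deleted libraries, against 1.15, 0, 0.788 and 1.93 CPM in the Ikbkb controls. Irf1-deleted libraries measured 0.0458, 1.26, 2.86 and 1.66 CPM, and it had no read in any Irf1 control. The library labelled Irf1-deleted 1, the second highest for Krt14, had 1 Cldn3 read. Wbscr25 overlaps Cldn3 on the other strand, and without a stated strand setting their reads cannot be told apart. The problem is not particular to Cldn3, since the pseudogene Gm27005 overlaps Trp63 on the same strand. Krt5, Krt6a and Dsp overlap only annotated genes that are not in the count table.

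Fcgbp (ENSMUSG00000047730, chromosome 7, 28071236 to 28120862, plus strand), the secretory epithelial gene, was also highest in Ikbkb-deleted 1. It measured 11.6 CPM there and 0 in the other 3 Ikbkb-deleted libraries, against 2.21, 0, 0 and 0.436 CPM in the Ikbkb controls. Irf1-deleted libraries measured 1.56, 3.81, 1.23 and 0 CPM, against 0 in all 4 Irf1 controls. Ikbkb-deleted 1 held 62.5% of the summed CPM of Cldn3 and 55.5% of that of Fcgbp.

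**Figure D3:**
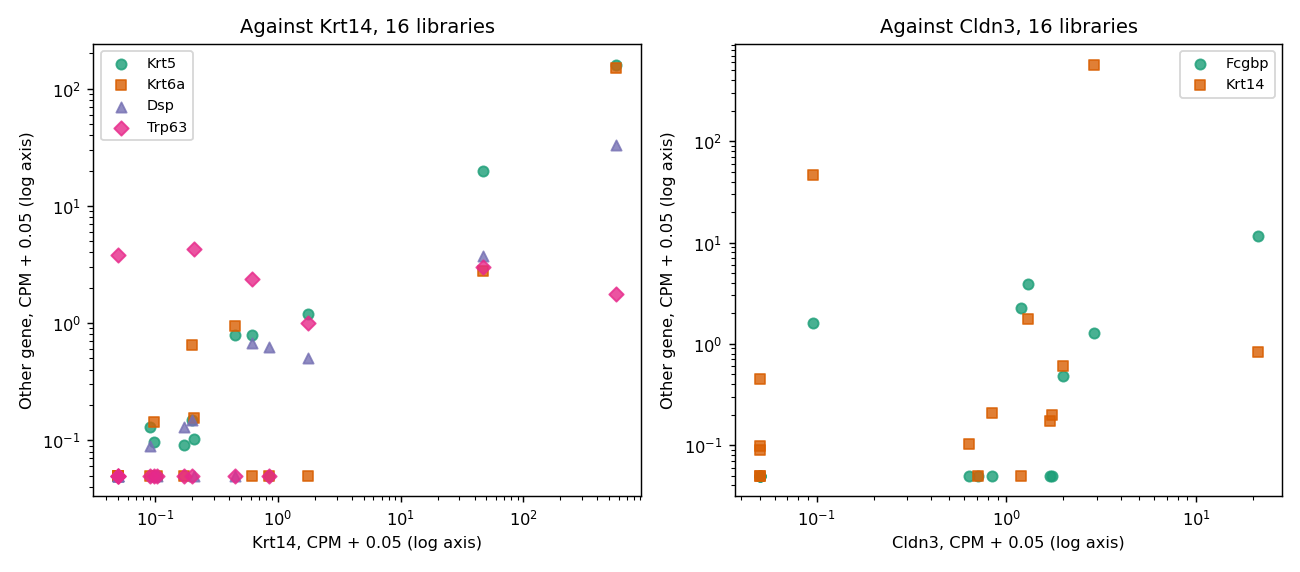
Level of other genes (vertical, CPM + 0.05, log axis) against Krt14 (left panel) and Cldn3 (right panel) in the 16 libraries (1 point per gene and library, log axes). Krt5, Krt6a and Dsp reach their highest values with Krt14 at 572 CPM, while Trp63 is highest where Krt14 is at 0.158 CPM, and Fcgbp is highest with Cldn3 at 21.1 CPM.

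Likeness of profiles was measured by the cosine similarity of log2(CPM + 1) over the 16 libraries, a description that runs from 0 (no library in common) to 1 (proportional). It rests mainly on the few libraries with high values. Krt14 had a cosine of 0.995 with Krt5, 0.987 with Dsp and 0.940 with Krt6a, and of 0.983, 0.972 and 0.855 when Irf1-deleted 3 was left out. Its cosine was 0.551 with Trp63, 0.458 with Fcgbp and 0.398 with Cldn3. Cldn3 and Fcgbp had a cosine of 0.821 with each other.

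Across the Irf1 set, every gene had a higher mean in the deleted libraries, which is how most of them were chosen. Krt14 averaged 155 ± 279 CPM in the Irf1-deleted libraries and 0.121 ± 0.185 CPM in the Irf1 controls (SD, n = 4 each). Without Irf1-deleted 3 the mean of the deleted libraries was 16.2 CPM, and without that library and the one labelled Irf1-deleted 1 it was 0.917 CPM. The same means were 45.3, 6.93 and 0.597 CPM for Krt5, with 0.218 CPM in the controls. They were 9.34, 1.41 and 0.268 CPM for Dsp, with 0.0100 CPM in the controls. Krt6a averaged 37.8 ± 73.8 CPM in the Irf1-deleted libraries and 0.247 ± 0.433 CPM in the Irf1 controls, and it was at 0 in the deleted libraries 2 and 4. Thus the difference in means of the keratins was carried by Irf1-deleted 3 and, below it, the library labelled Irf1-deleted 1.

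Trp63, Cldn3 and Fcgbp had no read in any Irf1 control, so their folds are lower bounds against 3 counts over that group. Trp63 was at least 41.8-fold, Cldn3 at least 43.4-fold and Fcgbp at least 49.2-fold higher in the Irf1-deleted libraries by the group means. At the edge of the set, Fgb, a fibrinogen gene of hepatocytes, was the only further gene that DESeq2 called in this comparison. It measured 8.15 CPM in Irf1-deleted 3, 0.0404 CPM in Irf1-deleted 4 and 0 in the other 6 libraries of the Irf1 set, with 3.78 and 3.99 CPM in Ikbkb-deleted 1 and 4 and at most 1.68 CPM in the Ikbkb controls.

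DESeq2 called 6 of 16040 genes in the Irf1 comparison (0.0374%), and 5 of the 7 genes were among them because that call chose them. The edgeR quasi-likelihood test with Benjamini-Hochberg adjustment called 0 of 16040 (0%), with 419 at an unadjusted p under 0.05, and limma voom called 0. Nothing is read from these counts about the 7 genes.

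The Ikbkb deletion did not enter the choice of the genes. In it edgeR called 0 of 16040 genes (0%) and 0 of the 7. All 7 had passed the filter on low counts in the fit of 16 libraries. In a fit of only the 8 Ikbkb libraries 1 of the 7 passed it. By the counts this was Cldn3, with at least 10 in every Ikbkb-deleted library. The others, Trp63 and Fcgbp included, passed only with the help of libraries of the Irf1 set, Irf1-deleted ones among them. For these genes the absence of a call, a fold change or an adjusted p says little. At an unadjusted p under 0.05 there were 769 genes and none of the 7. DESeq2 called 38 genes (0.237%) and none of the 7, and limma voom called none of either. Cldn3 averaged 5.999 ± 10.1 CPM in the Ikbkb-deleted libraries and 0.967 ± 0.802 CPM in the Ikbkb controls (SD, n = 4 each), with 2.52 (SE 1.42) as the log2 fold change and an edgeR adjusted p of 1. Without Ikbkb-deleted 1 the mean of the deleted libraries was 0.978 CPM and the log2 fold change was 0.01. Fcgbp averaged 2.89 ± 5.78 CPM in the Ikbkb-deleted libraries and 0.662 ± 1.05 CPM in the Ikbkb controls, with 1.97 (SE 2.10) as the log2 fold change and an edgeR adjusted p of 1. Without Ikbkb-deleted 1 it had no read in the deleted libraries.

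The keratins were near the limit of detection on both sides of the Ikbkb comparison. Krt14 averaged 0.248 ± 0.365 CPM in the Ikbkb-deleted libraries and 0.180 ± 0.265 CPM in the Ikbkb controls. Krt5 averaged 0.0249 CPM in Ikbkb-deleted and 0.200 CPM in Ikbkb control libraries, and Krt6a averaged 0.149 CPM in Ikbkb-deleted and 0.0263 CPM in Ikbkb control libraries. Dsp averaged 0.169 CPM in Ikbkb-deleted and 0.156 CPM in Ikbkb control libraries. Trp63, also low, averaged 0.933 CPM in Ikbkb-deleted and 1.64 CPM in Ikbkb control libraries. By edgeR, all 7 had an adjusted p of 1. An exact two-sided permutation of the CPM of each gene over the libraries gave p between 0.514 and 1, where 4 against 4 can go no lower than 0.0286, and an adjusted p of 1 over the 7 tests. A difference of the size of the spread between these libraries was not detectable.

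Between the control groups, edgeR called 2018 of 16040 genes (12.6%), and 1 of the 7. This was Cldn3, which had no read in Irf1 control libraries and averaged 0.967 ± 0.802 CPM in Ikbkb control libraries (SD, n = 4 each), at least 28.8-fold lower against 3 counts over the Irf1 controls. The Irf1 controls also entered the comparison that chose the genes, so these levels are a description. DESeq2 called 3 of the 7, namely Cldn3, Fcgbp and Trp63, against 19.6% of all genes, and limma voom called none, against 25.7%. The edgeR call of Cldn3 was lost when any 1 of the Irf1 controls was left out. It was also lost without Ikbkb control 1 or 4, or Irf1-deleted 2, 3 or 4. With any 1 control library left out, the log2 fold change of Cldn3 stayed between -3.89 and -3.00. The count over all genes was 782 without Irf1 control 3, 850 without Irf1 control 2, 1067 without Ikbkb control 2, 1180 without Irf1 control 1 and 1342 without Ikbkb control 1. Trp63 and Fcgbp likewise had no read in the Irf1 controls and averaged 1.64 and 0.662 CPM in the Ikbkb controls.

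Wider lists of epithelial genes, drawn up with earlier results known, placed the keratins in context. Among genes other than the 7, the list of wound and stress genes, which also holds S100a8, S100a9 and Sprr genes, summed to 444 CPM in Irf1-deleted 3, and to between 0.504 and 26.9 CPM in the other 15 libraries. It was led by Krt17 (226 CPM), Krt16 (110 CPM) and Krt6b (78.0 CPM), keratins of hair follicles, appendages or wounded skin. The library labelled Irf1-deleted 1 held 21.4 CPM of Krt17, 0.641 CPM of Krt16 and none of Krt6b. All 7 further genes of that list had at least 10 counts in Irf1-deleted 3.

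Desmosome genes summed to 320 CPM in Irf1-deleted 3 and to between 57.5 and 233 CPM in the other libraries. Of 11 further genes, 7 were highest in Irf1-deleted 3, namely Jup, Pkp1, Dsg3, Dsc2, Dsc3, Perp and Ppl, where 6.39% of all genes with at least 10 counts in some library were highest there. Dsc3 and Dsg3, which encode the adhesive cadherins of epidermal desmosomes, measured 31.3 and 16.8 CPM in Irf1-deleted 3. In the library labelled Irf1-deleted 1 they measured 5.18 and 2.56 CPM, and nowhere else above 0.187 CPM. Jup (134 CPM) was also well expressed in other libraries, with a median of 75.8 CPM. Pkp2, Pkp3, Dsg2 and Evpl were highest elsewhere. Pkp3 measured 41.9 CPM in Irf1-deleted 3, against 151 CPM in Ikbkb control 3 and 98.8 CPM in Ikbkb-deleted 1.

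Among further genes of the basal keratinocyte list, several were highest in Irf1-deleted 3. They included Col17a1, Itgb4, Lamb3 and Lama3, which belong to the anchorage of basal cells on the basement membrane, and Sfn. Others of the list did not share that peak. Itga6, an integrin of the same anchorage, measured 56.4 CPM in Irf1-deleted 3, near its median of 56.5 CPM, and was highest in the library labelled Irf1-deleted 1 at 83.99 CPM. Dst measured 153 CPM in Irf1-deleted 3 and was highest in Irf1 control 4 at 194 CPM. The list without the 7 genes summed to 314 CPM in Irf1-deleted 3 and to 271 CPM in Irf1 control 4, the next highest. Col17a1 measured 16.2 CPM in Irf1-deleted 3 and at most 4.52 CPM elsewhere. The basal gene Krt15 had a different order, with 3.34 CPM in the library labelled Irf1-deleted 1 and no read in Irf1-deleted 3.

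Genes of differentiated keratinocytes were mixed. They summed to 154 CPM in Irf1-deleted 3, the third highest of the 16, and to between 74.0 and 194 CPM over the 16, and 89.9 CPM of the sum in Irf1-deleted 3 was Lgals7, which was higher in other libraries. Krt10, the suprabasal keratin, measured 1.68 CPM in Irf1-deleted 3 and between 1.64 and 6.47 CPM over all libraries. Of 11 genes with at least 10 counts in some library, Krtdap, Calml3 and Grhl3 were highest in Irf1-deleted 3, which is 27.3% of them against 6.39% of all such genes. Krtdap measured 16.3 CPM there and at most 0.578 CPM elsewhere. Krt1, Flg and Casp14 were not analysed here.

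**Figure D4:**
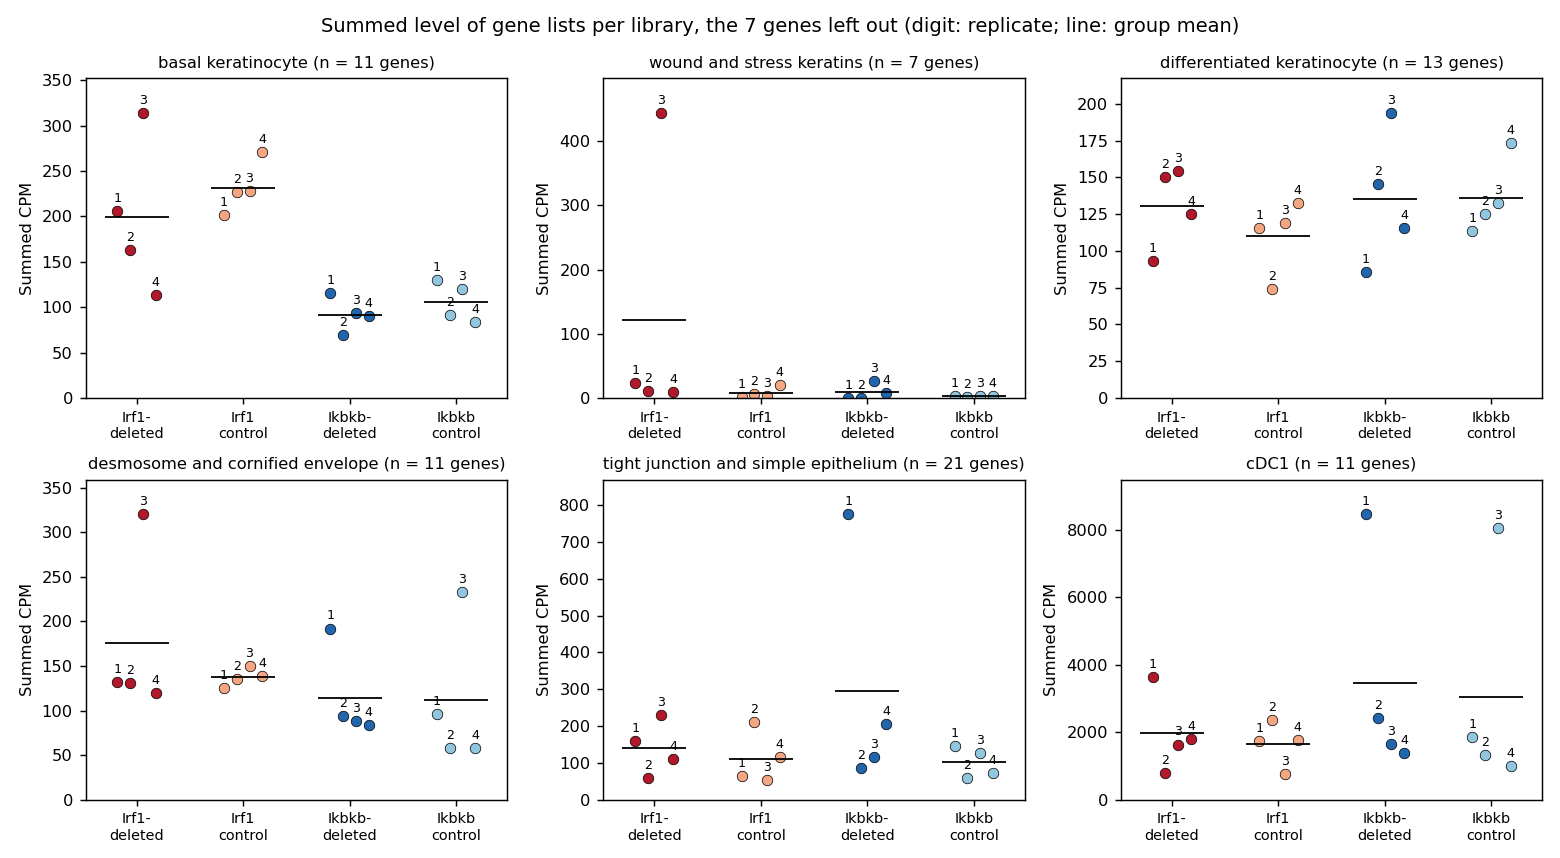
Summed CPM of 6 gene lists in each library by group, with the 7 genes left out (points are libraries, digits are replicate numbers, lines are group means). Irf1-deleted 3 stands at 444 CPM for wound and stress keratins, and Ikbkb-deleted 1 at 775 CPM for tight junction and simple epithelium genes.

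Tight junction and simple epithelium genes were, like Cldn3, highest in Ikbkb-deleted 1 and next in Irf1-deleted 3, but not in the same order below that. The 21 genes other than Cldn3 summed to 775 CPM in Ikbkb-deleted 1, to 229 CPM in Irf1-deleted 3 and to between 53.8 and 211 CPM in the other 14 libraries. Irf1 control 2, with no Cldn3 read, followed at 211 CPM, and Ikbkb control 4, with 1.93 CPM of Cldn3, held 73.2 CPM. Of the 21, 10 were highest in Ikbkb-deleted 1, where 6.18% of all genes with at least 10 counts in some library were highest. They were the claudin genes Cldn1, Cldn4 and Cldn7, the keratins Krt7, Krt8, Krt18 and Krt19 of simple epithelia, and Epcam, Spint1 and Prss8. Cldn1 measured 252 CPM in Ikbkb-deleted 1 and at most 33.96 CPM elsewhere, and Krt19 measured 160 CPM there and at most 52.4 CPM elsewhere. Epcam, an adhesion protein of epithelia, measured 24.1 CPM in Ikbkb-deleted 1 and 23.5 CPM in Irf1-deleted 3. The library labelled Irf1-deleted 1, with 19.6 CPM of Krt5, held 0.0916 CPM of Krt19 and no Krt8. Other genes of the list were higher there, with Spint1 at 91.2, Cldn1 at 32.1 and Epcam at 6.59 CPM (medians 43.5, 22.6 and 2.96 CPM). The sum of the 21 genes in that library was 158 CPM, which ranked 5th.

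Other lists moved with these libraries, and their part in the values above was not tested. Genes of cDC1s summed to 8462 CPM in Ikbkb-deleted 1, the highest of the 16. Of 11 such genes 5 (45.5%) were highest there, against 6.18% of all genes with at least 10 counts in some library. Ikbkb control 3 followed at 8047 CPM of cDC1 genes and had 128 CPM of tight junction and simple epithelium genes. Of 7 mammary gland genes with at least 10 counts in some library, 4 (57.1%) were highest in Ikbkb-deleted 1, against the same 6.18%. They were Wfdc18, Elf5, Prlr and Ltf, with the prolactin receptor gene Prlr at 28.5 CPM and Elf5 at 0.578 CPM. Csn2, Csn3 and Trps1 were highest in other libraries. The mammary list summed to 96.2 CPM in Ikbkb-deleted 1, with a median of 91.1 CPM over the 16 libraries. In Irf1-deleted 3, skeletal muscle genes (34.5 CPM) ranked 15th, adipocyte genes (1.53 CPM) 16th, melanoma and melanocyte genes (8.79 CPM) 8th and fibroblast genes (16327 CPM) 3rd among the 16 libraries. Langerhans cell genes (352 CPM) ranked 7th there, hair follicle and sebaceous gland genes (164 CPM) 2nd and liver genes (21.8 CPM) 2nd. Most of the Langerhans sum there was Mfge8 (305 CPM), which had a median of 290 CPM. Cd207 and Epcam of that list were highest in Ikbkb-deleted 1 (4.78 and 24.1 CPM) and next in Irf1-deleted 3 (2.77 and 23.5 CPM). Mfge8, Cd209a and Ltc4s were highest in other libraries. Most of the hair follicle sum in Irf1-deleted 3 was Sox9 (143 CPM), and Krt25, Krt27, Krt28, Krt71 and Krt35 had no read there. Secretory genes other than Fcgbp summed to 4.74 CPM in Irf1-deleted 3 and to at most 2.68 CPM elsewhere.

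No gene of these 8 epithelial lists was called for the Ikbkb deletion by edgeR, which called 0 of 16040 genes (0%) there. Unlike in the sums above, the lists here keep those of the 7 genes that belong to them. Thus Cldn3 is among the tight junction genes, and the 2 secretory genes tested were Fcgbp and Muc1. Of 18 tight junction and simple epithelium genes tested, 16 had a positive log2 fold change, with a median of 1.56, where the median over all genes was -0.02. Without Ikbkb-deleted 1 the median was 0.33, with 14 of 19 positive. Krt19 averaged 53.8 ± 75.1 CPM in the Ikbkb-deleted libraries and 6.31 ± 9.34 CPM in the Ikbkb controls (log2 fold change 3.07, SE 1.91, edgeR adjusted p = 1). Cldn1 averaged 83.0 ± 113 CPM in the Ikbkb-deleted libraries and 17.1 ± 2.65 CPM in the Ikbkb controls (2.27, SE 0.73, adjusted p = 0.973). Medians for the basal, desmosome and differentiated lists were -0.17, -0.10 and -0.32, with 5 of 12, 4 of 8 and 2 of 6 positive. They were 1.48 for secretory (2 of 2 positive), 1.23 for mammary (4 of 5) and 0.98 for hair follicle genes (4 of 5). Without Ikbkb-deleted 1 the secretory median was -0.90 (1 of 2 positive), the mammary median 0.24 (3 of 5), the hair follicle median 0.81 (4 of 5), the basal median -0.64 (1 of 13) and the desmosome median -0.84 (3 of 8). Of the wound and stress list only Krt6a, S100a8, S100a9 and Sprr1a were tested, with a median of 1.55 and 4 of 4 positive, and just 1 of these is a keratin.

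Between the control groups, edgeR called 4 genes of these lists beside Cldn3, with 12.6% called over all genes. They were 1 of 12 basal, 1 of 8 desmosome, 1 of 5 mammary and 1 of 5 hair follicle genes tested. None was called of 4 wound and stress, 6 differentiated and 2 secretory genes, and Cldn3 was the only call of 18 tight junction genes. The 7 genes were kept in these lists, and the calls are not read as a result about epithelial genes. Other cell type lists moved between the same groups, with 6 of 8 fibroblast genes called higher in the Irf1 controls (median log2 fold change 1.42) and 6 of 7 skeletal muscle genes called lower (median -3.86), and their part in these calls was not tested. Dst, which encodes a linker of filaments to the cell's anchorage, averaged 133 ± 44.4 CPM in Irf1 control libraries, against 34.3 ± 9.53 CPM in Ikbkb control libraries (SD, n = 4 each; log2 fold change 1.95, edgeR adjusted p = 0.0200). Jup, the junction gene for plakoglobin, averaged 101 ± 12.3 CPM in Irf1 control libraries, against 42.5 ± 21.5 CPM in Ikbkb control libraries (log2 fold change 1.25, edgeR adjusted p = 0.0178). Trps1 and Sox9 were also higher in the Irf1 controls, with log2 fold changes of 1.45 and 0.94 (edgeR adjusted p = 0.00636 and 0.0370). All 4 had reads in every library, and the count over all genes fell to 782 without Irf1 control 3.

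Of the genes whose profile was most like that of Krt14, the 3 closest were Krt17 (cosine 0.989), Dsc3 (0.985) and Dsg3 (0.979), which belong to the lists above. They were followed by Pla2g2f, a phospholipase of the epidermis, at 9.53 CPM in Irf1-deleted 3 and 1.28 CPM in the library labelled Irf1-deleted 1, with no read in the other 14. Ly6g6c and Lypd3 came next, at 7.41 and 18.2 CPM in Irf1-deleted 3 and 1.099 and 1.65 CPM in the library labelled Irf1-deleted 1. The remaining of the 15 were Urah, Trim29, Gpx2, Sfn, Krt79, Ckmt1, Krt16, Serpinb5 and Klk7, with cosines of 0.938 to 0.889. Krt79, a keratin of hair follicle openings and sebaceous glands, was the exception in order. It measured 7.95 CPM in Irf1-deleted 3 and 15.8 CPM in the library labelled Irf1-deleted 1. Of the 15 genes, 12 stayed among the 15 closest when Irf1-deleted 3 was left out.

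**Figure D5:**
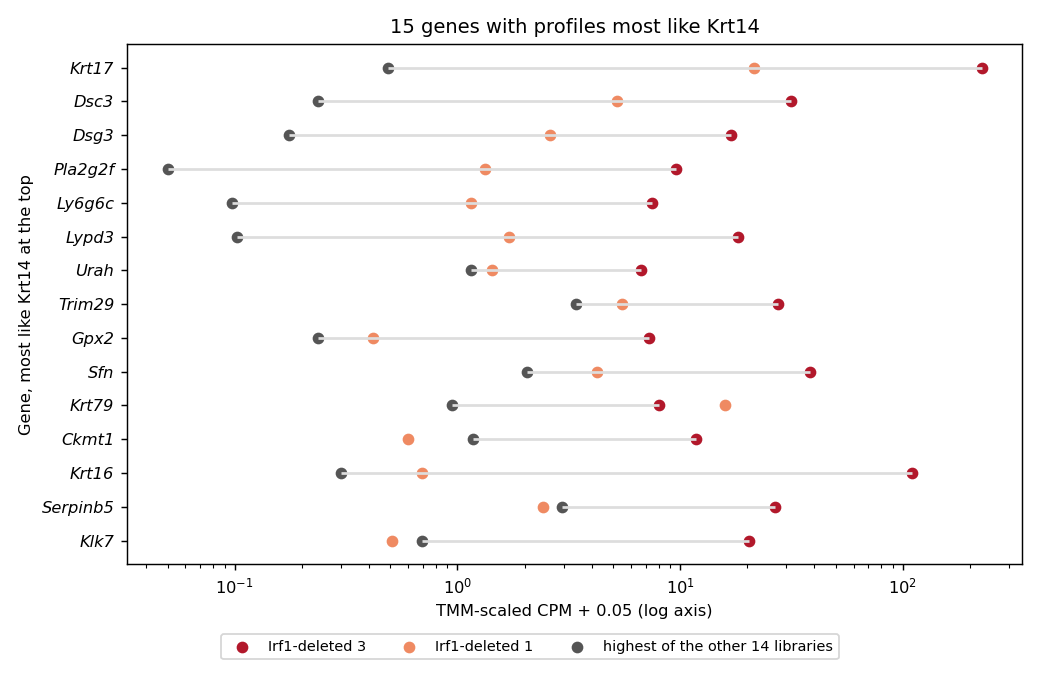
Level (CPM + 0.05, log axis) of the 15 genes most like Krt14 in Irf1-deleted 3, in the library labelled Irf1-deleted 1 and in the highest of the other 14 libraries. Krt17, at the top, reaches 226 CPM in Irf1-deleted 3, and Krt79 is the gene that is higher in the library labelled Irf1-deleted 1, at 15.8 CPM.

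By number of genes detected, Irf1-deleted 3 held all 7 with at least 10 counts, the library labelled Irf1-deleted 1 and Irf1-deleted 2 each held 6, and Irf1-deleted 4 held 1. The Irf1 controls held 0, 2, 0 and 0. The Ikbkb-deleted libraries held 4, 2, 1 and 2, and the Ikbkb controls 2, 0, 2 and 4. Irf1-deleted 3 had 19515548 counts, fewer than 11 other libraries, and Irf1-deleted 2 had the most of all, at 27433818.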

How the data were processed

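The deposited table holds raw read counts per gene, made by the authors from libraries prepared with the SMART-Seq v4 kit, per the labels' protocols. Per the submitters' processing notes, bcl2fastq 2.17.1.14, cutadapt 1.10, STAR 2.5.3a, HTSeq 0.6.1p1 and mm10 were used. The annotation release, the strand setting and the treatment of reads matching several genes are not given in the sources used here. Symbols were matched from GENCODE for 32684 of 32697 IDs.

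Genes were kept by the edgeR filter (minimum count 10, minimum total 15), scaled by TMM and fitted in 1 model of the 4 groups with the quasi-likelihood test of edgeR 4.0.16 (R 4.3.3), with Benjamini-Hochberg adjustment at 0.05 and a prior count of 2 for log2 fold changes. The procedure was also run on simulated counts in which only genes of higher average level were changed. That run does not bear on genes as low as the keratins were in the Ikbkb set. DESeq2 1.42.0, limma 3.58.1 (voom), RLE scaling, a prior count of 0.5, no filter, fits on only the 8 libraries compared and leaving out each library were alternatives. CPM were computed here from the deposited counts and TMM-scaled totals. With 4 libraries a group, counts under about 3 over a group set the limit of detection.

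The 7 genes and all gene lists were chosen with earlier results of these data known. The naming rule took Fgb, the 15 genes with the highest cosine to Krt14 among 12050 genes with at least 5 CPM in some library (predicted genes and pseudogenes left out), and per list up to 4 called genes or, with none called, the 3 with the highest CPM. Other list genes, named because they were highest in Irf1-deleted 3 or Ikbkb-deleted 1 or differed from that pattern, were chosen after their values were seen. Promoter windows come from RefSeq. Replicate numbers follow the order of the record and pair nothing. Intervals are exact Clopper-Pearson at the 0.95 level.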

Additional observations from a re-analysis of the deposited data

Results flagged for a closer look

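In 17 of 52 groups of 4 values examined, 1 library stood far from the other 3, where chance gives about 2.6 for independent normal values. These values are neither, since the Irf1-deleted values include those the genes were selected on, lists contain the genes, and in 4 of the groups the other 3 libraries were at 0. In the Irf1-deleted group the library was number 3 for Krt14 (572 CPM), Krt5 (160 CPM), Krt6a (149 CPM) and Dsp (33.1 CPM). It was also number 3 for the summed lists of wound and stress genes (593 CPM, Krt6a included), desmosome genes (353 CPM, Dsp included) and hair follicle genes (164 CPM).

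In the Ikbkb-deleted group, number 1 stood apart for Cldn3 (21.1 CPM), Fcgbp (11.6 CPM), the desmosome list (193 CPM) and the secretory list (12.1 CPM, Fcgbp included). Number 2 stood apart for Trp63 (3.73 CPM) and number 4 for Krt6a (0.598 CPM). In the Irf1 controls, number 2 stood apart for Krt5 (0.745 CPM) and Krt6a (0.894 CPM). In the Ikbkb controls, number 4 stood apart for Krt5 (0.747 CPM) and Dsp (0.623 CPM).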

How the results depend on the processing

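No paired analysis was possible because the replicate numbers follow the order of the record and pair no libraries. For the Ikbkb deletion, edgeR called 0 genes and 0 of the 7; DESeq2 called 38 genes, and leaving out a library gave 0 to 1. For the Irf1 deletion DESeq2 called 6 genes and 5 of the 7, where edgeR called 0. Between the controls, the 2018 genes became 1199 with no filter, 3146 with DESeq2, 4130 with limma voom, 1069 with only the 8 libraries, and 782 to 2404 with a library left out. Of the 7, it was 0 with no filter and with limma voom, 3 with DESeq2, and 0 to 1 with a library left out. With only the 8 control libraries 0 of the 7 passed the filter, so none could be called there. Only the fits on 8 libraries tested fewer than 7.

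Under the Ikbkb deletion the log2 fold changes of 6 genes turned sign when 1 library was left out. Krt14 ranged from -0.67 to 1.24, Krt5 from -1.58 to 0.11, Krt6a from -0.36 to 1.39, Trp63 from -4.22 to 0.24, Dsp from -0.95 to 1.49 and Fcgbp from -3.01 to 3.62. Krt14, Dsp and Fcgbp turned without Ikbkb-deleted 1, Krt6a without Ikbkb-deleted 4, Krt5 without Ikbkb control 4 and Trp63 without Ikbkb control 3. Dsp also turned without Ikbkb control 1 (-0.20), 2 (-0.19) or 3 (-0.18). Cldn3 ranged from 0.01 to 3.03. RLE scaling moved the median of all genes by less than 0.05. The causes were not tested.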

Other observations

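Outside the lists above, the highest values of the Krt14-like genes that left the closest 15 without Irf1-deleted 3 were those of Serpinb5 (26.7 CPM), Klk7 (20.2 CPM) and Ckmt1 (11.7 CPM) in that library. Klk7, a protease of the cornified layer, measured 0.458 CPM in the library labelled Irf1-deleted 1 and at most 0.646 CPM in the other 14.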
